A study of Bos taurus with 2 samples.

Results

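IFNT3, SSLP1, PTGS2, CYP11A1 and ATP12A, genes of the ruminant trophoblast, were followed in single nuclei from cattle (Bos taurus), taken from blastoids or from blastocysts at day 8. They were chosen by symbol, and each of the 5 matched 1 of the 35643 features listed in both libraries. The blastoids were blastocyst-like structures that formed in microwells seeded with 8 bEPSC, 8 bXEN and 16 bTSC, which are bovine stem cell lines, in a medium (ACL) with LIF, activin A and the GSK3 inhibitor Chir99021. The cell lines had been grown with iMEF feeder cells that were depleted by sieving and by settling on gelatin before seeding. Blastoids and embryos both carry the genotype label WT, both were frozen before nuclei were isolated, and the labels do not say how many structures or embryos were pooled. Each group had 1 library, so the differences below have no replicate check, no test was possible, and every interval (95%, exact) covers counting error only.

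In ruminants the elongating trophectoderm secretes interferon tau, which acts on the maternal endometrium and keeps the corpus luteum alive, the event called maternal recognition of pregnancy. IFNT3 encodes an interferon tau. It belongs to a family of near-identical copies, and in the RefSeq gene order of assembly ARS-UCD2.0 its 20 nearest neighbours include 3 other interferon genes, IFNE, IFNT2 and IFN-tau-c1. IFNT2 had no symbol in the deposited feature list, so how reads were shared between the copies is uncertain. SSLP1 encodes a secreted protein of the Ly-6 family made by the ruminant trophoblast. PTGS2 encodes the inducible prostaglandin synthase (cyclooxygenase-2), CYP11A1 the side-chain cleavage enzyme that begins steroid synthesis from cholesterol, and ATP12A the catalytic subunit of the non-gastric proton-potassium ATPase.

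The blastoid library held 1957 barcodes with a median of 2012 UMIs (unique molecules counted), and the blastocyst library 944 with a median of 6920. They shared 1 barcode string. After filtering, 1914 and 828 barcodes remained, of which 286 and 688 had at least 4000 UMIs. The trophoblast side was taken as the clusters named trophectoderm-like from markers, with the 5 genes left out of the clustering. In the blastoid this was cluster 2, with 154 nuclei (median 14620 UMIs). Its GATA2 level was 335.3 CPM (UMIs of the gene per 1000000 UMIs of the cluster), against 48.0 CPM in cluster 3. In the blastocyst it was cluster 2, with 232 nuclei (median 8776.5 UMIs, GATA2 at 478.3 CPM), and cluster 3, with 125 barcodes (median 1783 UMIs) led by keratin and ribosomal protein genes. Of those 125 barcodes, called shallow below, 92 were under 4000 UMIs. The other blastocyst clusters were hypoblast-like (cluster 1, 400 nuclei) and epiblast-like (cluster 4, 71 nuclei). The other blastoid clusters were an unnamed one of deep nuclei (cluster 3, 140 nuclei, led by LMX1A and LDB2) and 1620 shallow barcodes (cluster 1, median 1926 UMIs) with 15.7% of UMIs from ribosomal protein genes, against 2.49% in blastoid cluster 2.

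IFNT3 RNA was found mostly in the shallow barcodes of the blastoid. It stood at 480.2 CPM (456.3 to 504.9; 1520 UMIs) in blastoid cluster 1, at 94.3 CPM (82.4 to 107.3; 228 UMIs) in the trophectoderm-like cluster 2 and at 72.8 CPM (61.1 to 86.0; 138 UMIs) in the unnamed cluster 3. Cluster 1 thus held 80.6% of the library's IFNT3 UMIs with 42.3% of all UMIs. In the blastocyst, IFNT3 stood at 21.3 CPM (15.8 to 28.2; 49 UMIs) in the trophectoderm-like cluster 2, 23.6 CPM (11.8 to 42.2; 11 UMIs) in the shallow cluster 3, 8.35 CPM in the hypoblast-like and 2.69 CPM in the epiblast-like cluster. All 3 blastoid clusters were above all 4 blastocyst clusters. Clusters 2 and 3 of the blastocyst did not differ beyond counting error. Split by depth instead, the trophectoderm-like barcodes of the embryo stood at 62.6 CPM (31.3 to 112.0; 11 UMIs) under 4000 UMIs and 18.9 CPM (14.0 to 25.05; 49 UMIs) from 4000, intervals that do not overlap. Its hypoblast-like and epiblast-like clusters did not differ beyond counting error.

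SSLP1 had the same order in the blastoid, and another in the embryo. Its level was 779.6 CPM (749.2 to 811.0) in blastoid cluster 1, 266.6 CPM (246.5 to 288.0) in cluster 2 and 109.7 CPM (95.3 to 125.6) in cluster 3. In the blastocyst the highest level, 57.9 CPM (41.9 to 78.0; 43 UMIs in 20 of 71 nuclei), was in the epiblast-like cluster. The trophectoderm-like clusters 2 and 3 stood at 17.4 and 17.2 CPM (40 and 8 UMIs) and the hypoblast-like cluster at 11.04 CPM (37 UMIs), and these 3 neighbours in the order did not differ beyond counting error. The epiblast-like level was 3.33-fold that of the trophectoderm-like class (2.16 to 5.14) and 5.25-fold that of the hypoblast-like cluster (3.30 to 8.38).

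PTGS2 was the gene with the most similar levels in the trophectoderm-like nuclei of both sources. It stood at 494.8 CPM (467.2 to 523.7; 1197 UMIs in 141 of 154 nuclei) in blastoid cluster 2 and at 436.9 CPM (410.3 to 464.8; 1003 UMIs in 199 of 232 nuclei) in blastocyst cluster 2. The shallow blastocyst cluster 3 read 505.9 CPM, but 164 of its 236 UMIs came from 1 barcode with 80592 UMIs, 795 of them KRT18. Without it the level was 186.6 CPM (146.0 to 235.0). Split by depth instead, the embryo's trophectoderm-like barcodes stood at 404.2 CPM (315.7 to 509.8; 71 UMIs) under 4000 UMIs. From 4000 UMIs they stood at 451.6 CPM (426.1 to 478.3), an overlapping interval. Blastoid cluster 1 stood at 617.6 CPM (590.5 to 645.6) and blastoid cluster 3 at 106.0 CPM. The hypoblast-like and epiblast-like clusters of the embryo stood lowest, at 21.2 and 17.5 CPM. Among nuclei with at least 4000 UMIs, the per-nucleus PTGS2 level had a median of 395.8 CPM (quartiles 222.1 and 688.1) in 147 trophectoderm-like blastoid nuclei and 367.1 CPM (quartiles 145.2 and 604.8) in 221 nuclei of blastocyst cluster 2.

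CYP11A1 and ATP12A were sparse and were counted mainly in the embryo's trophectoderm. CYP11A1 stood at 33.98 CPM (26.9 to 42.4; 78 UMIs in 50 of 232 nuclei) in blastocyst cluster 2. In the shallow cluster 3 it stood at 12.9 CPM (6 UMIs). The hypoblast-like cluster held 3 UMIs and the epiblast-like cluster 0, where 3 UMIs would read 4.04 CPM. Split by depth instead, CYP11A1 in the embryo's trophectoderm-like barcodes stood at 45.5 CPM (19.7 to 89.7; 8 UMIs) under 4000 UMIs. From 4000 UMIs it stood at 29.4 CPM (23.2 to 36.8), an overlapping interval. In the blastoid it stood at 7.03 CPM (4.09 to 11.3; 17 UMIs) in cluster 2, 4.42 CPM (14 UMIs) in cluster 1 and 2.11 CPM (4 UMIs) in cluster 3, and neighbouring levels did not differ beyond counting error. ATP12A stood at 14.8 CPM (10.3 to 20.7; 34 UMIs in 31 nuclei) in blastocyst cluster 2 and at 6.43 CPM (3 UMIs) in cluster 3, with 1 UMI in the hypoblast-like and 0 in the epiblast-like cluster. The blastoid clusters held 5, 5 and 4 ATP12A UMIs, at 1.58, 2.07 and 2.11 CPM. The trophectoderm-like class, which held 40.3% of the embryo library's UMIs, held 96.6% of its CYP11A1 UMIs and 97.4% of its ATP12A UMIs.

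**Figure D1:**
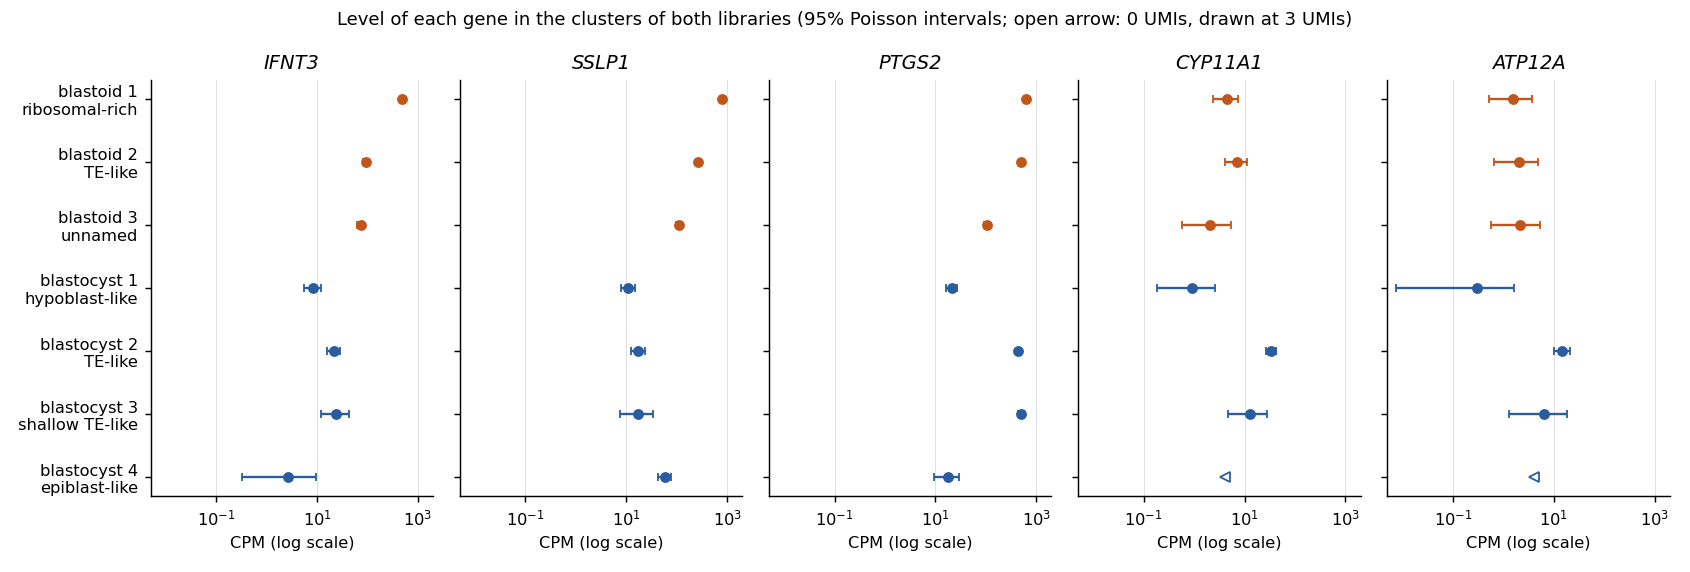
Level of each gene (CPM of the summed UMIs, log scale) in the 3 blastoid clusters (orange) and the 4 blastocyst clusters (blue), with 95% Poisson intervals. An open arrow marks 0 UMIs and is drawn at the level of 3 UMIs (4.04 CPM). IFNT3 and SSLP1 are higher in every blastoid cluster than in every blastocyst cluster, whereas CYP11A1 and ATP12A are highest in blastocyst cluster 2.

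Between the trophectoderm-like sums of the 2 libraries, the genes split by direction. IFNT3 was 4.34-fold higher in the blastoid (3.25 to 5.87; 94.3 against 21.7 CPM) and SSLP1 15.3-fold higher (11.4 to 21.0; 266.6 against 17.4 CPM). PTGS2 was 1.10-fold higher (1.02 to 1.20; 494.8 against 448.6 CPM). With nuclei chosen by GATA2 and GATA3 UMIs in place of clusters its log2 ratio changed sign, from 0.14 to -0.083 (455.5 against 482.3 CPM). That sign rested on 1 blastocyst barcode with 164 PTGS2 UMIs. Without the richest barcode of each library the levels were 444.7 and 425.5 CPM, with overlapping intervals. CYP11A1 was 4.33-fold lower in the blastoid (2.55 to 7.78; 7.03 against 30.4 CPM) and ATP12A 6.48-fold lower (2.54 to 21.1; 2.07 against 13.4 CPM). With the GATA2 and GATA3 choice of nuclei the log2 ratios were -2.79 for CYP11A1 (from -2.11) and -3.75 for ATP12A (from -2.70). Nucleus means in place of sums made the ATP12A difference smaller, as given below. Of the 5 genes, 2 were thus at least 2-fold higher and 2 at least 2-fold lower. Among 15405 genes that reached 10 UMIs over both sums, 17.8% were at least 2-fold higher and 15.5% at least 2-fold lower, with a median log2 ratio of 0.01. Over whole libraries, IFNT3 and SSLP1 were 19.2-fold and 23.8-fold higher in the blastoid and PTGS2 2.32-fold higher, where 24.2% of genes were at least 2-fold higher. CYP11A1 and ATP12A were 2.71-fold and 2.96-fold lower, where 20.8% of genes were at least 2-fold lower.

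Each library was then asked whether the trophectoderm-like nuclei, taken at all depths, stood above its other nuclei with at least 4000 UMIs. In the blastocyst they did for 4 genes, with CYP11A1 40.4-fold higher (13.3 to 199.7; 84 against 3 UMIs), ATP12A 53.3-fold (8.999 to 2163; 37 against 1 UMI), PTGS2 22.3-fold (17.8 to 28.4) and IFNT3 3.09-fold (1.94 to 5.03), where 14.3% of genes were at least 2-fold higher. SSLP1 did not, at 0.887 times the other nuclei (0.606 to 1.29). Of the 357 trophectoderm-like blastocyst barcodes, 103 were under 4000 UMIs. In those from 4000 UMIs, IFNT3 stood at 18.9 CPM, against 7.03 CPM in the other nuclei. In the blastoid, PTGS2 was 4.67-fold higher (4.02 to 5.45), SSLP1 2.43-fold (2.08 to 2.85) and CYP11A1 3.33-fold (1.09 to 13.6; 17 against 4 UMIs), where 17.6% of genes were at least 2-fold higher. Without the trophectoderm-like nucleus with the most CYP11A1 UMIs its ratio was 2.95 (0.939 to 12.2), an interval that includes 1. Without the richest nucleus of each sum it was 3.90 (1.10 to 21.0; 15 against 3 UMIs). ATP12A was at 0.98 times (0.211 to 4.94), and 3 of its 5 UMIs came from 1 nucleus, without which the ratio was 0.394 (0.0356 to 2.75). IFNT3 was 1.29-fold higher (1.04 to 1.61). Without the trophectoderm-like nucleus with the most IFNT3, which held 31 of the 228 UMIs, the ratio was 1.14 (0.911 to 1.43). Without the richest nucleus of each sum it was 1.18 (0.939 to 1.48). Whether IFNT3 differed from the other deep nuclei beyond counting error thus depended on 1 trophectoderm-like nucleus. That nucleus had 41687 UMIs and held also 39 of SSLP1 and 23 of PTGS2.

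The proportions among the 3 abundant genes also differed between blastoid clusters. These are ratios of UMI counts, which are not scaled to gene length and are compared only across clusters. IFNT3 had 0.616 UMIs per SSLP1 UMI in the shallow cluster 1 (0.577 to 0.657) and 0.663 in cluster 3 (0.531 to 0.827), intervals that overlap, but 0.353 in the trophectoderm-like cluster 2 (0.303 to 0.412). PTGS2 had 0.792 UMIs per SSLP1 UMI in cluster 1 (0.746 to 0.841), 0.966 in cluster 3 (0.792 to 1.18) and 1.86 in cluster 2 (1.68 to 2.05). In the trophectoderm-like cluster 2 of the embryo there were 25.1 PTGS2 UMIs per SSLP1 UMI (18.3 to 35.3).

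The shallow blastoid barcodes, those under 4000 UMIs outside the trophectoderm-like class, numbered 1621. Relative to the trophectoderm-like nuclei of the same library, IFNT3 was 5.09-fold higher in them (4.43 to 5.88) and SSLP1 2.92-fold (2.68 to 3.19), where 22.5% of 15244 genes were at least 2-fold higher and the median log2 ratio of all genes was -0.47. PTGS2 was 1.25-fold higher (1.16 to 1.34), and CYP11A1 (0.629; 0.287 to 1.36) and ATP12A (0.764; 0.176 to 3.32) did not differ beyond counting error. UMIs of mitochondrial genes made up 2.03% in the shallow barcodes and 0.427% in the trophectoderm-like nuclei. The 21 trophectoderm markers with a symbol were all above 0 in both, with summed levels of 12118 and 4209 CPM. The 24 hypoblast markers were likewise all above 0, at 3821 and 4663 CPM. Of 15 epiblast markers with a symbol, 12 were above 0 in the shallow barcodes (FGF4, KLF17 and OTX2 were at 0) and 14 in the trophectoderm-like nuclei (FGF4 was at 0), with summed levels of 327.5 and 403.1 CPM. The markers at least 1.5-fold above the other blastoid clusters in cluster 1 were 9 of trophectoderm (CDX2, KRT8, KRT18, KRT7, KRT19, ELF3, EFNA1, MSX2 and CLDN4), 8 of hypoblast (COL4A1, SPARC, FN1, APOE, APOA1, APOB, AFP and TTR) and 2 of epiblast (SOX2 and ZFP42). The part of depth, ribosomal share or marker levels in these differences was not tested. No shallow barcode had more than 7 UMIs of IFNT3, SSLP1 or PTGS2, and the 10 barcodes with the most IFNT3 held 3.75% of its UMIs in cluster 1. A finer partition split the shallow group into 11 subclusters, in which IFNT3 ranged from 403.2 to 591.0 CPM, SSLP1 from 648.2 to 916.4 CPM and PTGS2 from 551.3 to 719.1 CPM.

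Levels of IFNT3 and SSLP1 in the blastoid differed between barcodes below and above 4000 UMIs. In the blastoid library, IFNT3 stood at 496.6 CPM in barcodes with 1000 to 2000 UMIs and 462.6 CPM from 2000 to 4000, then at 157.4, 97.3 and 65.8 CPM in the bins that begin at 4000, 8000 and 16000 UMIs. SSLP1 stood at 767.5 and 786.0 CPM below 4000 UMIs and between 185.6 and 207.8 CPM above. In the 140 blastocyst barcodes under 4000 UMIs, IFNT3 stood at 45.2 CPM (24.1 to 77.3; 13 UMIs) and SSLP1 at 17.4 CPM (5.65 to 40.6; 5 UMIs). In the bins that begin at 4000, 8000 and 16000 UMIs, blastocyst IFNT3 stood at 11.3 CPM (6.97 to 17.2), 10.5 CPM (7.49 to 14.4) and 17.0 CPM (9.89 to 27.2). All were below the level under 4000 UMIs, whose interval overlapped that of the deepest bin only. Blastocyst SSLP1 stood at 13.9, 18.9 and 27.0 CPM in these bins, inside its interval under 4000 UMIs (5.65 to 40.6). PTGS2 in the blastocyst stood at 445.9 CPM under 1000 UMIs (34 barcodes) and 456.3 CPM from 16000 UMIs (47 barcodes), and at 143.7 CPM from 4000 to 8000 UMIs (304 barcodes). Trophectoderm-like barcodes were 32, 25 and 111 of these, and 164 of the 457 PTGS2 UMIs in the deepest bin came from the barcode with 80592 UMIs. Of the 140 barcodes, 103 were trophectoderm-like by cluster. The 37 others held 2 UMIs of IFNT3, 2 of SSLP1, 4 of PTGS2 and 0 of CYP11A1 and ATP12A.

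**Figure D2:**
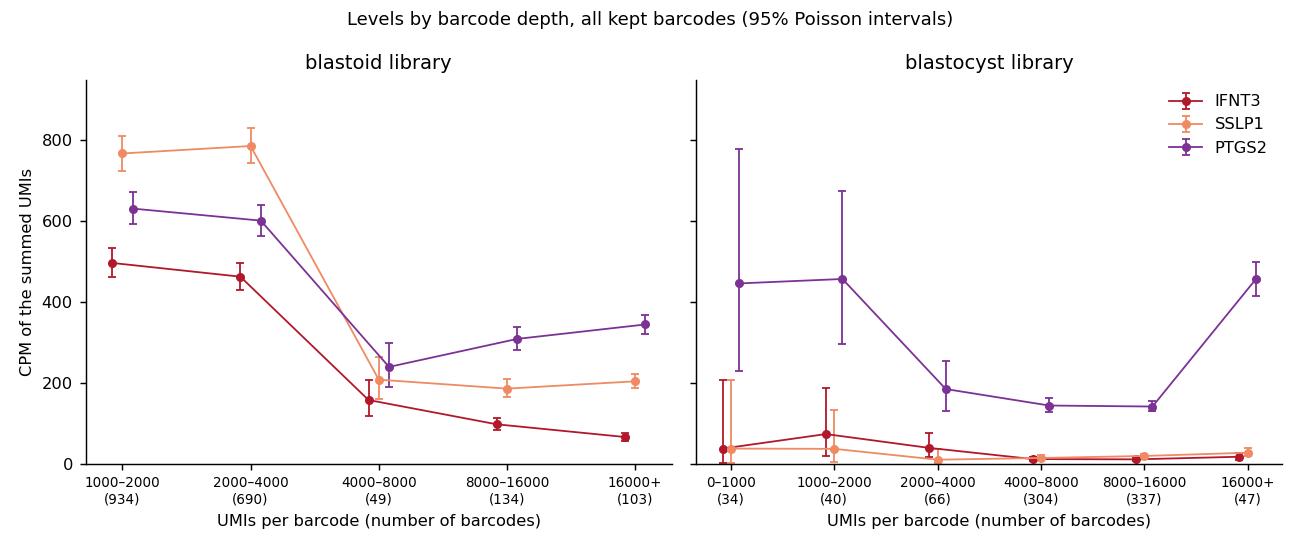
IFNT3, SSLP1 and PTGS2 levels (CPM of the summed UMIs, 95% Poisson intervals) in bins of UMIs per barcode, with the number of barcodes in brackets. Bins with fewer than 20 barcodes are not drawn. In the blastoid all 3 genes are highest under 4000 UMIs, whereas in the blastocyst IFNT3 and SSLP1 lie below PTGS2 at every depth.

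Shares of nuclei with a UMI were compared after each nucleus was thinned at random to 2000 UMIs, since deeper nuclei detect more genes. IFNT3 was then found in 16.0% of 150 trophectoderm-like blastoid nuclei (10.5% to 22.9%) and in 15.8% of the 139 nuclei of blastoid cluster 3 (median 10993.5 UMIs), so that the 2 groups could not be told apart by this share at this depth. Thinned to 5000 UMIs the shares were 34.9% and 31.6%. Whether these UMIs came from the nuclei or from free RNA was not tested. It was 57.6% in 687 shallow barcodes. In the blastocyst, IFNT3 was found in 4.48% of 290 trophectoderm-like nuclei against 1.78% of 393 hypoblast-like nuclei (median 7669 UMIs). SSLP1 and ATP12A were each found in 2.41% of those 290 nuclei, where the hypoblast-like shares were 2.80% and 0.254%. SSLP1 was found in 39.3% of trophectoderm-like blastoid nuclei, 26.6% of cluster 3 and 79.5% of shallow barcodes, and in 8.45% of epiblast-like nuclei of the embryo (6 of 71). PTGS2 was found in 60.7% of trophectoderm-like blastoid nuclei against 18.7% of cluster 3, and in 41.4% of trophectoderm-like blastocyst nuclei against 5.85% of hypoblast-like nuclei. Within that blastocyst class the PTGS2 share was 48.0% in cluster 2 (229 nuclei) and 16.4% in the shallow cluster 3 (61 barcodes). CYP11A1 was found in 1.33% of trophectoderm-like blastoid nuclei and 4.48% of trophectoderm-like blastocyst nuclei, against 0.254% of hypoblast-like nuclei. ATP12A was found in 0 of 150 trophectoderm-like blastoid nuclei (exact upper limit 2.43%, where 3 of 150 nuclei would be 2%). This limits nuclei with an ATP12A UMI at this thinned depth and sets no limit on nuclei that express it. Before thinning, the shares in trophectoderm-like blastoid nuclei were 62.3% for IFNT3, 90.3% for SSLP1, 91.6% for PTGS2, 10.4% for CYP11A1 and 1.95% for ATP12A. In trophectoderm-like blastocyst nuclei they were 10.9%, 7.56%, 66.4%, 15.4% and 9.24% in the same order. In cluster 2 alone of these they were 12.9%, 9.05%, 85.8%, 21.6% and 13.4%. Thinning left out 4 blastoid and 67 blastocyst nuclei of the class that were too shallow, and 934 shallow blastoid barcodes.

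**Figure D3:**
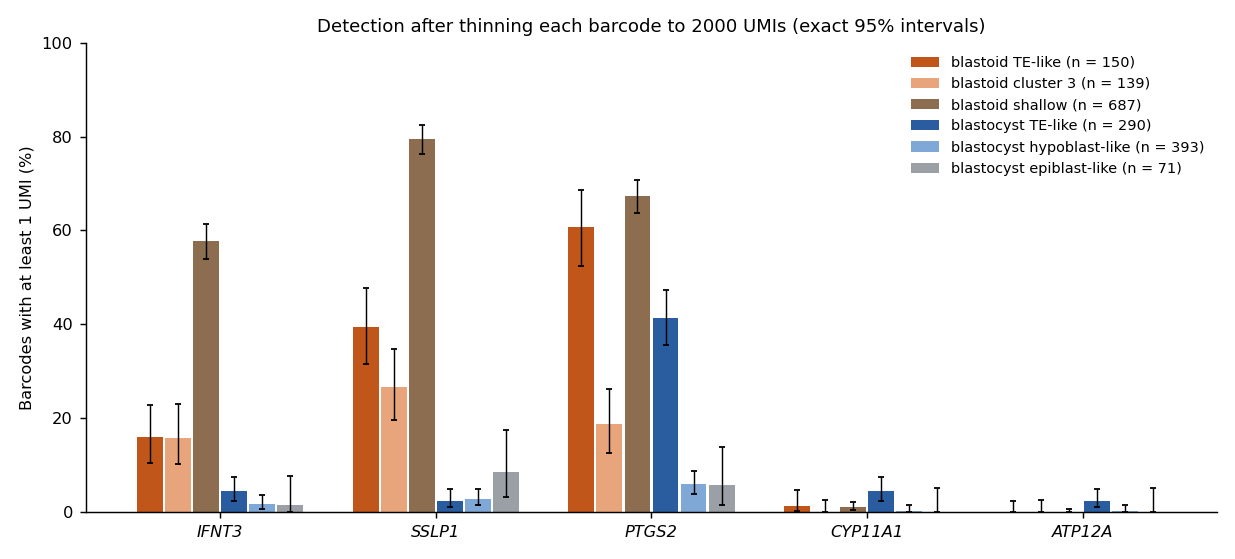
Share of barcodes with at least 1 UMI of each gene after thinning to 2000 UMIs, with exact 95% intervals, in 3 groups of the blastoid and 3 of the blastocyst. PTGS2 separates the trophectoderm-like nuclei from the other deep nuclei in both libraries, whereas the IFNT3 bars of the trophectoderm-like blastoid nuclei (16.0%) and of blastoid cluster 3 (15.8%) are level.

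Within a group of nuclei, the genes were found together about as often as the product of their shares gives. In trophectoderm-like blastoid nuclei thinned to 2000 UMIs, IFNT3 and SSLP1 were both found in 10 of 150 nuclei against a product of 9.44, IFNT3 and PTGS2 in 14 against 14.6, and SSLP1 and PTGS2 in 33 against 35.8. In the shallow barcodes the counts were 315 against 314.7, 265 against 266.3 and 362 against 367.2. In trophectoderm-like blastocyst nuclei, IFNT3 and PTGS2 were both found in 6 of 290 nuclei against 5.38, PTGS2 and CYP11A1 in 8 against 5.38, and IFNT3 and CYP11A1 in 0 against 0.583. Nuclei with IFNT3, SSLP1 and PTGS2 together made up 3.33% of thinned trophectoderm-like blastoid nuclei (5 of 150), 29.7% of thinned shallow barcodes (204 of 687) and 0 of 290 trophectoderm-like blastocyst nuclei. Without thinning they were 83 of 154, 472 of 1621 and 5 of 357. A count of 1 nucleus, in blastocyst cluster 2, held all 5 genes. Co-detection with listed regulators of interferon tau genes spread more widely, most where few nuclei held a gene. With nuclei thinned to 5000 UMIs, the count of trophectoderm-like blastoid nuclei with IFNT3 and a regulator ran from 0.787 times the product for CREBBP to 1.34 times for TFAP2C over 10 regulators. At 2000 UMIs, where fewer nuclei hold each gene, it ran from 0.481 times for TFAP2A to 2.5 times for TFAP2C over 8 regulators. These were 2 nuclei against a product of 4.16 and 4 against 1.6. For PTGS2 in trophectoderm-like blastocyst nuclei at 5000 UMIs the count ran from 0.845 times for ETS2 to 1.27 times for TFAP2A. At 2000 UMIs it ran from 0.22 times for ETS2 (1 nucleus against 4.55) to 1.42 times for ELF3 (10 against 7.03). In the same nuclei at 5000 UMIs, IFNT3 ran from 0 times for CDX2 and ELF3 to 1.32 times for JUN. Its counts were 0 against 1.24 and 2.41, and 5 against 3.79. SSLP1 ran from 0 times for CDX2 (0 against 1.01) to 2.33 times for TFAP2A (3 against 1.29).

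**Figure D4:**
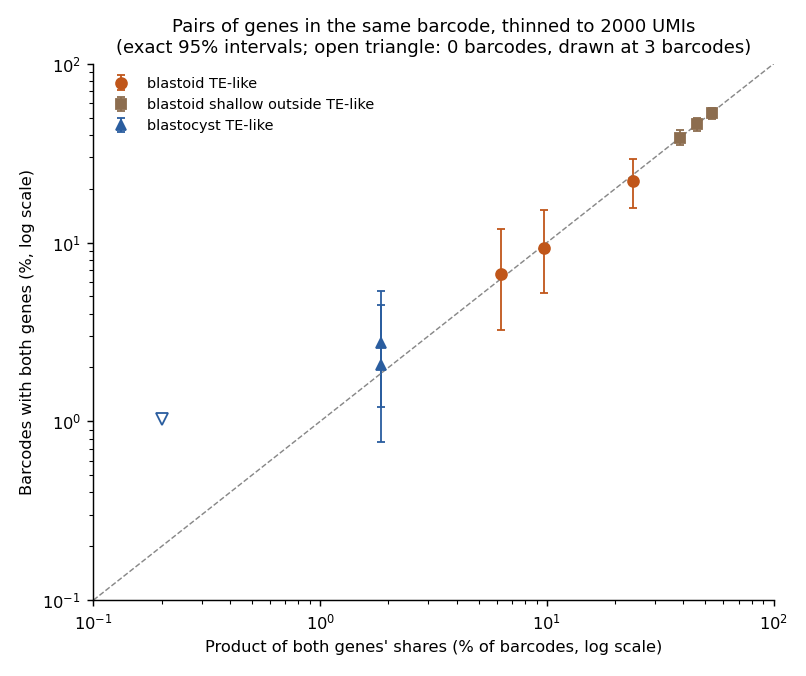
Share of barcodes with both genes of a pair (y axis, log scale, exact 95% intervals) against the product of the shares of each gene (x axis, log scale) after thinning to 2000 UMIs, for pairs with at least 10 barcodes of each gene. The dashed line marks equality, and the open triangle marks 0 of 290 barcodes, drawn at 3 barcodes. The 8 pairs with a count above 0 have intervals that include the line.

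Finer clustering divided the deep trophectoderm-like nuclei of the embryo into subclusters of 140 nuclei (led by ACSL4 and ADGRL3) and 92 nuclei (led by SLC34A2 and NGEF). CYP11A1 was 1.68-fold higher in the smaller one (1.05 to 2.68; 45.6 against 27.2 CPM). ATP12A (18.7 against 12.6 CPM), IFNT3 (25.7 against 18.8 CPM), SSLP1 (22.2 against 14.6 CPM) and PTGS2 (424.0 against 449.8 CPM) did not differ between them beyond counting error. The same clustering set apart 16 epiblast-like nuclei that held 24 SSLP1 UMIs, at 144.5 CPM (92.6 to 215.0), with 1 UMI of IFNT3 and 2 of PTGS2.

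The neighbours of the 5 genes in their pathways were read from 6 lists in the same trophectoderm-like comparison, with a gene counted from 10 UMIs over both sums and with counts under 3 set to 3 for a median. The counts are read against the shares over all genes, 17.8% higher and 15.5% lower. Of 20 listed trophoblast products 7 had a symbol and 5 were counted, of which 4 were at least 2-fold higher in the blastoid and 0 lower (median log2 ratio 3.85). Beside the 2 genes already described these were TKDP4, a trophoblast Kunitz domain protein, with 65 blastoid UMIs and 0 blastocyst UMIs (at least 24.7-fold higher), and FETUB, a fetuin, with 38 against 1 UMI (43.4-fold; 7.33 to 1758). PAG1, which encodes a pregnancy-associated glycoprotein, was 1.40-fold higher (1.13 to 1.74). Of 12 counted regulators of interferon tau genes, 3 were at least 2-fold higher and 0 lower (median -0.09), where 17.8% of all genes were higher and 15.5% lower: TFAP2A at 2.80-fold (2.11 to 3.74), DLX3 at 2.28-fold (1.13 to 4.84) and ETS2 at 2.26-fold (1.62 to 3.20). CDX2, a trophectoderm factor that acts with ETS2 on interferon tau promoters, was 1.64-fold higher (1.17 to 2.30), and GATA2 and GATA3 were at 0.808 and 0.898 times the blastocyst level.

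Of 12 counted genes of the interferon receptor and response, 5 were at least 2-fold lower in the blastoid and 2 higher (median -0.92), against 15.5% and 17.8% of all genes. RSAD2, an antiviral effector, had 0 blastoid and 35 blastocyst UMIs (at least 10.2-fold lower), and IFI6 was 5.05-fold lower (2.78 to 9.93). The kinase JAK1 was 2.47-fold lower (1.98 to 3.098). USP18, which limits interferon receptor signalling, was 5.44-fold higher (3.20 to 9.79), and the repressor IRF2 had 19 UMIs against 0 (at least 7.23-fold higher). ISG15, the classical interferon tau response gene of the endometrium, had 6 UMIs against 13, and 10 of the 22 genes with a symbol were under 10 UMIs.

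In the prostaglandin list, 2 of 15 counted genes were at least 2-fold higher in the blastoid and 2 lower (median 0.14), no larger a share than the 17.8% and 15.5% of all genes. PTGDS, the prostaglandin D synthase, had 229 blastoid and 0 blastocyst UMIs (at least 87.2-fold higher), and PTGIS, the prostacyclin synthase, was 23.6-fold higher (12.2 to 52.4). PTGES, the inducible prostaglandin E synthase, was 1.62-fold higher (1.29 to 2.05), and PLA2G4A, the phospholipase that frees arachidonic acid, 1.94-fold (1.62 to 2.34). The prostaglandin F receptor PTGFR had 2 UMIs against 95 and was 41.6-fold lower (11.2 to 348.5), and AKR1B1, an aldo-keto reductase with prostaglandin F synthase activity, was 2.23-fold lower (1.77 to 2.82).

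In the steroid list, 6 of 19 counted genes were at least 2-fold lower and 4 higher (median -0.44), against 15.5% and 17.8% of all genes. Those lower included, beside CYP11A1, HSD3B1, which acts on the product of CYP11A1 (4.07-fold; 3.45 to 4.84), the aromatase CYP19A1 (3.04-fold; 1.68 to 5.81), STS and STARD3. Its electron donors FDXR and FDX1 were at 0.621 and 0.725 times the blastocyst level. SULT1E1, the estrogen sulfotransferase, was the highest, with 557 UMIs against 2 (318.0-fold; 87.6 to 2632), and STAR, which moves cholesterol into mitochondria, was 3.26-fold higher (1.33 to 9.13; 20 against 7 UMIs). In the ATPase list, 4 of 13 counted genes were at least 2-fold lower and 4 higher (median 0.28), against the same shares of all genes. ATP1B4 (2 against 22 UMIs) and ATP1B2 (0 against 16 UMIs) were lower with ATP12A, whereas the sodium-potassium pump subunit ATP1B3 was at 0.821 times the blastocyst level. The potassium channel KCNQ1 was 5.203-fold higher (4.49 to 6.05) and the sodium-proton exchanger SLC9A3 7.23-fold (5.53 to 9.59).

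**Figure D5:**
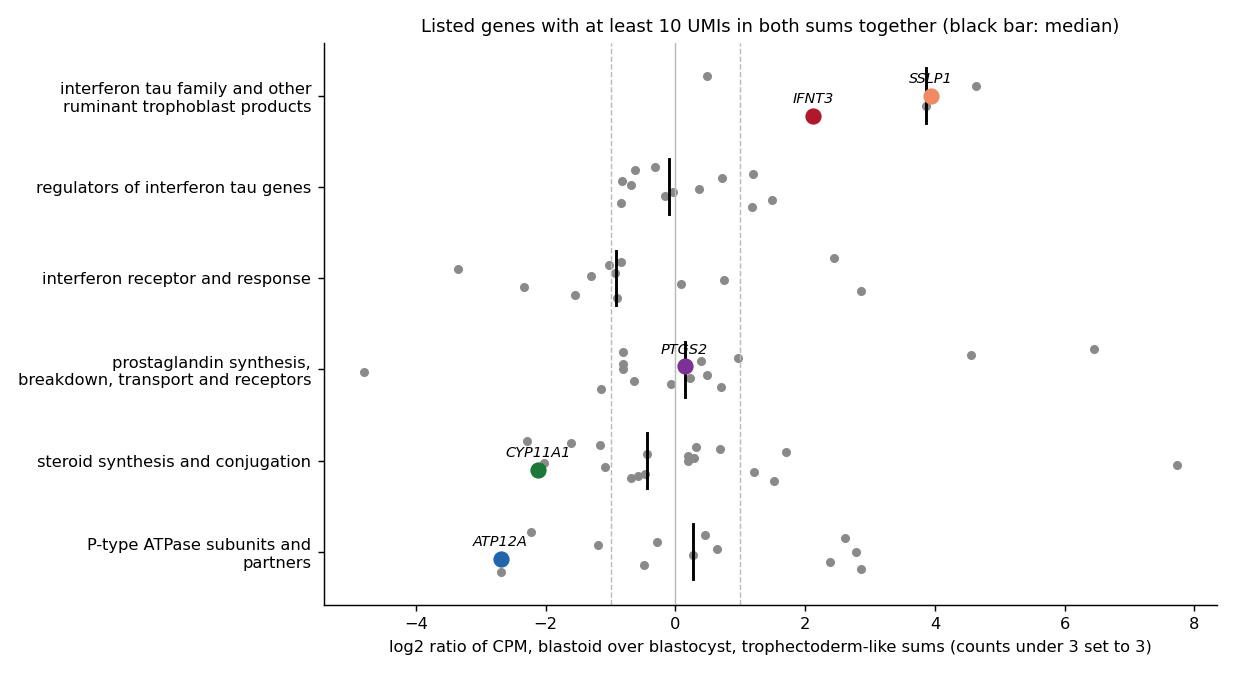
Log2 ratio of CPM between the trophectoderm-like sums (blastoid over blastocyst) for the genes of 6 lists, from 10 UMIs over both sums. Grey points are listed genes, coloured points the 5 genes described here, black bars the list medians, and dashed lines mark 2-fold. IFNT3 and SSLP1 lie at 2.12 and 3.94, PTGS2 at 0.14, and CYP11A1 and ATP12A at -2.11 and -2.70.

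Genes with the most similar pattern were ranked by Pearson's r of log2(CPM + 1) over the 7 clusters, among 10301 genes with a symbol and at least 100 UMIs in all. The clusters of a library share its depth and preparation, so r is a description only. For IFNT3 these were ASCL2, a trophoblast transcription factor (r = 0.987), SERINC2, SLC39A2, CTSZ and SURF4. ASCL2 stood at 106.1, 28.5 and 23.2 CPM in blastoid clusters 1, 2 and 3 and at most at 8.58 CPM in the blastocyst. For SSLP1 they were RARRES1 (0.974), SIPA1, CYB5A, GPN1 and IRX3, and for PTGS2 LMO1 (0.993), COTL1, EPPK1, CARNS1 and HMOX2. For CYP11A1 they were FADS3 (0.980), SUSD1, TNIP1, RIT1 and SAMSN1. For ATP12A they were SAMSN1 (0.978), GDPD2, CYP11A1 (0.964), LPAR3 and SUSD1. CYP11A1 was the only 1 of the 5 genes to appear beside another. ATP12A, with 14 blastoid and 38 blastocyst UMIs, was under the 100 UMIs needed and could not appear.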

How the data were processed

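The authors deposited UMI counts for each gene in each barcode, made with Cell Ranger from 10x 3′ (v3.1) libraries of nuclei. The version is 7.2.0 per the file headers and 7.1.0 per the submitters' processing notes, which also name Seurat 4.3.0. The genome build, annotation and cell calling are not given in the sources used here, so no coordinates or sequences are printed. Symbols come from the deposited feature list, in which 16116 features have none. Of 130 listed genes, 109 matched.

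Barcodes with at least 500 genes and under 10% mitochondrial UMIs were kept, and the highest Scrublet scores (scanpy 1.11.5; 0.8% per 1000 barcodes) were removed, 30 in the blastoid and 5 in the blastocyst. Each library was clustered on its own (2000 variable genes, 30 components, 15 neighbours, leidenalg 0.10.2 at resolution 0.5) without the 5 genes, the markers and the listed genes. A cluster was named from at least 3 markers (at least 100 UMIs and 1.5 times the other clusters), if at least 2 times as many as of any other type. Over 5% ribosomal protein UMIs made it ribosomal-rich. The rule came from an earlier analysis of these data, which changed it once after names were seen. The keratin-led blastocyst cluster was unnamed (57 barcodes) at a minimum of 1000 genes and ribosomal-rich (66 barcodes) at resolution 1.0. CPM was computed from UMIs summed over barcodes. Intervals are exact Poisson, Clopper-Pearson and conditional (scipy 1.17.1) at 95%, and ratios against 0 UMIs used a floor of 3 UMIs. In the calls and medians over all genes and in ratios of sums repeated under other settings, counts under 3 were set to 3. UMI totals per library were 7575395 and 7029253. The ratio intervals, the direction of ratios with the floor and the thinning were tested on simulated data. The other steps were not. The 5 genes and the lists were chosen with earlier results of these data known. Named genes are the 5 genes, listed genes and, for each of the 5, the 5 most similar. Some listed genes are counted but not reported here by name.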

Additional observations from a re-analysis of the deposited data

Results flagged for a closer look

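The barcodes that the filters left out entered no comparison under the filters used, though some entered the repeat with a minimum of 200 genes, and some carried the genes above the limit of 3 UMIs that a count of 0 allows. In the blastoid, 13 such barcodes with 17094 UMIs held IFNT3 at 409.5 CPM (7 UMIs), SSLP1 at 468.0 CPM (8 UMIs) and PTGS2 at 936.0 CPM (16 UMIs). In the blastocyst, 111 such barcodes, with 24.6% mitochondrial UMIs, held SSLP1 at 56.3 CPM (6 UMIs) and PTGS2 at 328.7 CPM (35 UMIs). These values rest on few UMIs.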

How the results depend on the processing

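The comparison of trophectoderm-like sums and the comparison of shallow with trophectoderm-like blastoid barcodes were repeated under up to 12 alternatives each: other gene minimums, resolutions or denominators, no doublet removal, a gate on GATA2 and GATA3, nucleus means, the nucleus richest in the gene left out, only nuclei with at least 4000 UMIs and, chosen after seeing the data, the blastocyst without its shallow keratin cluster. IFNT3, SSLP1, CYP11A1 and ATP12A kept their direction and stayed inside the wide counting interval of the first comparison under each. Several still moved by over 1.5 times: the log2 ratio of ATP12A was -3.75 with the gate, -3.35 without the richest nucleus (the 2 UMIs left set to 3) and -1.89 with nucleus means, against -2.70, and that of CYP11A1 -2.79 with the gate, against -2.11. The log2 ratio of PTGS2 there was -0.083 with the gate, 0.27 with nucleus means and 0.27 without the richest nucleus. The sign with the gate rested on 1 blastocyst barcode with 164 PTGS2 UMIs. For shallow over trophectoderm-like barcodes, without ribosomal and mitochondrial UMIs in the denominator the log2 ratios were 2.59 (IFNT3), 1.79 (SSLP1) and 0.56 (PTGS2). Less the median of genes with at least 100 UMIs (-0.51) they were 2.86, 2.06 and 0.83. The gate gave 0.44 for PTGS2 and nucleus means 2.09 for IFNT3. The cause was not tested. Shares of nuclei moved in 25 of 50 repeats (other depths of thinning, none, at least 2 UMIs, or the gate), and shares with both genes of a pair in 12 of 18 repeats with another depth of thinning or the gate. No paired analysis was possible because each group has 1 library, which also allows no replicate to be left out. Depth limits CYP11A1 and ATP12A most: the trophectoderm-like blastoid sums rest on 17 and 5 UMIs.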

Other observations

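SSLP1 in the embryo was found in a minority of the epiblast-like nuclei: 51 of 71 had none, the 10 richest held 67.4% of the 43 UMIs and none had more than 4. Without the richest nucleus the level was 53.8 CPM (38.2 to 73.5). In the finer partition, SSLP1 stood at 144.5 CPM in the 16 epiblast-like nuclei and at 22.1 CPM (14.1 to 32.8) in an unnamed subcluster of 102 nuclei. The 20 epiblast-like nuclei with SSLP1 had a median of 11557 UMIs and the 51 without it 9511, so depth differed between them and its part was not tested. Summed epiblast markers stood at 1411 CPM with SSLP1 and 848.0 CPM without, hypoblast markers at 4223 and 5902 CPM, and trophectoderm markers at 365.4 and 330.8 CPM. NANOG was found in 15 of the 20 and 32 of the 51 nuclei, and LIN28B in 17 and 28.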
